A study of Mus musculus with 12 samples.

Results

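The genes described here are those whose response to Sonic hedgehog could be compared between 2 mouse fibroblast lines. For each gene the change with SHHN in MLg was subtracted from that in NIH-3T3, and the difference was tested. A gene was taken in when its mean was at least 1 FPKM in at least one group of each line, which 10740 of 24346 genes with values met. Of these, 10739 also passed the filter on low values and were tested. The remaining gene, Snord17, did not pass the filter. The tested gene just inside the limit, 4930447F24Rik, reached a mean of 1.0008 FPKM in its lower line, with a difference of 0.80 on the log2 scale (SE 0.28). The one just outside, Gm9958, reached 0.997 FPKM, with a difference of -0.46 (SE 0.32).

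Bulk RNA was sequenced in 12 libraries, 3 in each of 4 groups. NIH-3T3 is an adherent fibroblast line from NIH/Swiss mouse embryo, and MLg (also labelled CCL206) is an adherent fibroblast line from the lung of newborn ddY mice. Each line received vehicle or recombinant SHHN, the signalling fragment of Sonic hedgehog, at 1 µg/ml for 48 h in medium with 0.5% FBS. Each group is 1 established line, grown before treatment in calf serum for NIH-3T3 and in FBS for MLg. Line, strain, tissue, age and growth serum therefore cannot be told apart in any difference below. The labels do not say that the libraries of a group came from separate cultures, so the p-values measure the spread between these libraries, which may be technical. In bulk RNA, fewer cells that express a gene and less RNA per cell cannot be told apart.

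Hedgehog ligands bind Patched (Ptch1), which otherwise holds the membrane protein Smoothened (Smo) inactive. Released Smo acts through the primary cilium on the Gli transcription factors, which are restrained by Sufu and Kif7, and the cell then transcribes Gli1, Ptch1 and Hhip. In fibroblasts and lung mesenchyme the pathway is known for its links to proliferation and to signals passed between mesenchyme and epithelium. The comparison asked which genes answered the same ligand differently in an embryonic and a lung fibroblast line.

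Values are FPKM, fragments per kilobase of transcript scaled to the mapped fragments of the library. Effects are differences of group means of log2(FPKM + 0.5), a scale that understates the change of genes near 0. A difference above 0 means that the SHHN effect lay higher in NIH-3T3 than in MLg. A result is called when the adjusted p from limma, corrected by Benjamini-Hochberg over all 12379 genes tested, was under 0.05. Depth is unknown, because the deposited values hold no counts, so no interval or floor from counting is given. FPKM totals ran from 470218 to 659862 per library. NIH-3T3 control replicate 2 stood apart, with the highest total, the fewest genes above 0 (13401, against 13957 to 14793 in the others) and the largest median distance from its group means (0.177 on the log2 scale, against 0.0666 to 0.136). All 11 fibroblast markers averaged at least 1 FPKM in both NIH-3T3 groups. In MLg 10 of the 11 did, while Thy1, a fibroblast surface protein, was close to 0 (0.0701 FPKM in control and 0.0236 with SHHN). The macrophage genes Adgre1 and Tyrobp and the epithelial gene Epcam were listed at 0 in every library. Cd14, of the macrophage and leukocyte markers, averaged up to 5.30 FPKM (MLg control). The endothelial cadherin Cdh5 averaged 0.0774 FPKM in NIH-3T3 control and 9.06 with SHHN, and 0.0123 and 5.03 in MLg. Tek averaged 6.86 FPKM in NIH-3T3 control and 8.76 with SHHN, and 0.0547 and 0.943 in MLg. The endothelial markers Pecam1, Kdr, Tie1, Vwf and Emcn averaged under 1 FPKM in every group.

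The difference was called for 1290 of the 10739 genes (12.01%), beside 13.4% of all genes tested. It lay above 0 for 733 genes and below 0 for 557, beside 7.48% and 5.95% of all genes tested. Of the 1290, 596 had an estimated difference of at least 2-fold between the lines. When the test itself required a difference of at least 2-fold, 66 genes were called. The effect within a line was called for 3456 of the genes in NIH-3T3 (background 31.4%) and for 2411 in MLg (background 22.8%). Across the 10739 genes the 2 effects had a Pearson r of 0.60 and a Spearman rho of 0.435, given as a description because genes of the same libraries are not independent. The 2 effects share no library. The median difference was -0.03. The total was 817 without MLg SHHN replicate 3, 859 without MLg control replicate 2 and 1951 without NIH-3T3 control replicate 2. In the last case 909 lay above 0 and 1042 below 0, so the balance of directions turned. With a correction of each library for transcript length and GC content 2212 were called, and 1220 of the 1290 were among them.

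**Figure D1:**
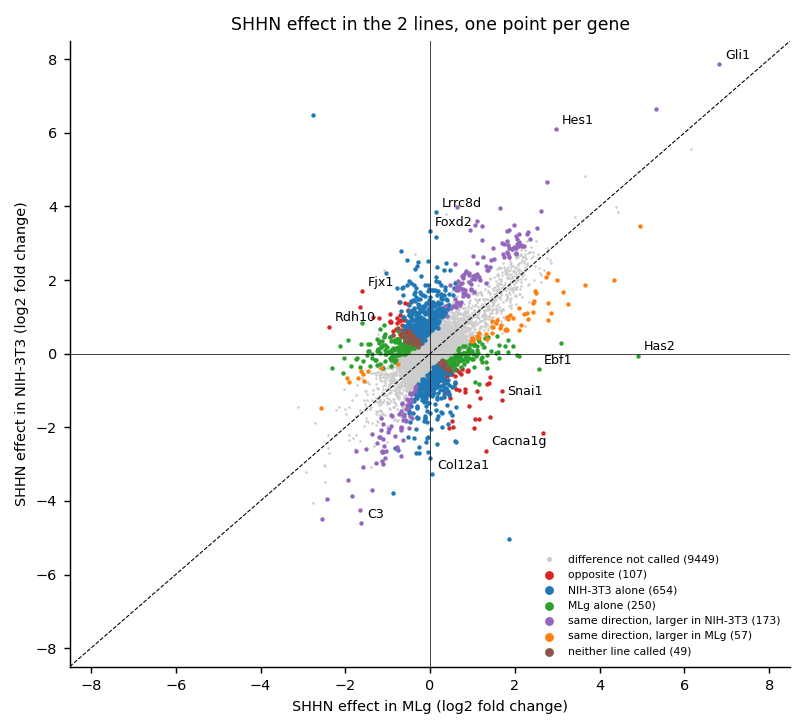
SHHN effect in NIH-3T3 (vertical axis) against that in MLg (horizontal axis), both as log2 fold changes, with 1 point per tested gene, colours for the classes of called differences, and a dashed line where the effects are equal. The 107 opposite genes lie in the upper left and lower right of the plot, and Rps27 lies outside the axes.

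Called differences fell into classes by what each line did on its own. The effects were called in both lines with opposite sign for 107 genes, 63 of them higher in NIH-3T3 and lower in MLg. For 654 genes the effect was called in NIH-3T3 alone (374 higher, 280 lower), and for 250 in MLg alone (102 higher, 148 lower). Both lines moved the same way, by different amounts, for 173 genes with the larger effect in NIH-3T3 and 57 with the larger effect in MLg. For 49 genes neither effect was called. These classes rest on the calls within each line, and for 37 of the 110 genes chosen by rule such a call changed under at least one alternative. With or without a called difference, 1340 genes were called in the same direction in both lines, the 173 and the 57 among them. For 901 of the 1340 the 95% interval of the difference lay between -1 and 1, which bounds the difference at 2-fold.

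Fjx1 and Rdh10 led the genes that rose in NIH-3T3 and fell in MLg. Fjx1, a Golgi kinase of the planar cell polarity system (chr2:102449366-102452499 in mm10), read 0.829, 1.47 and 0.673 FPKM in the NIH-3T3 control libraries, 4.03, 4.27 and 4.39 with SHHN, 26.6, 23.0 and 19.4 in MLg control and 5.78, 9.02 and 7.06 with SHHN. Every SHHN library was above its controls in NIH-3T3 and below them in MLg. The log2 effects were 1.70 and -1.60, and their difference was 3.31 (SE 0.28, adjusted p = 8.98e-06, limma). Rdh10, which catalyses the first oxidation of retinol towards retinoic acid (chr1:16105774-16133734), read 9.60, 7.34 and 11.6 FPKM in NIH-3T3 control, 17.7, 15.2 and 14.7 with SHHN, 215, 197 and 232 in MLg control and 35.8, 42.8 and 43.8 with SHHN. The groups did not overlap in either line, and the fall in MLg was the larger of the 2 movements. Its difference was 3.11 (SE 0.21, adjusted p = 1.53e-06).

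Negr1, a neuronal adhesion protein, went from 0.484 ± 0.212 to 1.85 ± 0.366 FPKM (mean ± SD, n = 3) in NIH-3T3 and from 14.6 ± 3.09 to 4.25 ± 0.286 in MLg, a difference of 2.92 (SE 0.27). Chrnb1, a subunit of the muscle acetylcholine receptor, and Itga7, a laminin-binding integrin, differed by 2.35 and 2.16. All 3 were low in NIH-3T3 control and remained lower in NIH-3T3 with SHHN than in MLg with SHHN. From the gene lists, the Wnt receptor Fzd7, the elastic fibre protein Fbln5 and the glucocorticoid-induced Tsc22d3 also rose in NIH-3T3 and fell in MLg, with differences of 1.75, 1.23 and 1.37. The class of Tsc22d3 was less firm: its MLg effect of -0.51 lost the call without MLg SHHN replicate 1 (-0.39, adjusted p = 0.0596).

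The reverse order, lower in NIH-3T3 and higher in MLg, was found for 44 genes. Cacna1g, the T-type calcium channel Cav3.1 (chr11:94408391-94474198), read 15.8, 14.8 and 14.2 FPKM in NIH-3T3 control, 1.94, 2.23 and 1.77 with SHHN, 0.986, 1.18 and 1.15 in MLg control and 3.94, 3.14 and 3.37 with SHHN. The lines exchanged places: the highest controls were those of NIH-3T3, and the MLg libraries were the higher ones with SHHN. The effects were -2.64 and 1.31, with a difference of -3.95 (SE 0.18, adjusted p = 7.24e-08). Snai1, the Snail repressor of epithelial genes (chr2:167538195-167542814), read 35.4, 30.1 and 33.0 FPKM in NIH-3T3 control, 16.6, 12.5 and 11.5 with SHHN, 13.8, 10.9 and 8.83 in MLg control and 39.0, 40.7 and 31.3 with SHHN. It too changed places between the lines without overlap of groups, with a difference of -2.96 (SE 0.24, adjusted p = 6.39e-06).

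Agtr2, an angiotensin II receptor, was abundant in NIH-3T3 and fell from 621 ± 165 to 187 ± 42.8 FPKM, while in MLg it rose from 0.347 ± 0.0777 to 1.74 ± 0.222 and stayed more than an order of magnitude lower. Its difference was -3.11 (SE 0.28). Ppap2b, a phosphatase of bioactive lipids, differed by -3.06 (SE 0.21), from 523 ± 11.5 to 131 ± 31.2 FPKM in NIH-3T3 and from 32.3 ± 2.03 to 67.2 ± 5.84 in MLg. The epithelial growth factor Fgf7 and the orphan nuclear receptor Nr4a1 fell in NIH-3T3 and rose in MLg as well, with differences of -2.20 and -1.40. Their classes were less firm: the NIH-3T3 effect of Fgf7 had an adjusted p of 0.0562 when each line was fitted on its own 6 libraries, and the MLg effect of Nr4a1 had 0.0614 with MLg SHHN replicate 1 left out and 0.0523 with MLg control replicate 3 left out. Fgf10, a further mesenchymal growth factor for epithelium named after its values were seen, went from 35.8 ± 8.14 to 17.9 ± 4.56 FPKM in NIH-3T3 and from 7.02 ± 0.795 to 11.5 ± 0.531 in MLg (difference -1.67, SE 0.28). In 101 of the 107 opposite genes the control and SHHN libraries did not overlap in either line. The class was chosen by called effects in both lines, so this adds no support, and the share over all genes was not counted. Of the 107, 14 moved at least 2-fold in each line, and 39 stayed opposite whichever library was left out. Both the 14 and the 39 include Rps27 and Rnaset2a, which were not opposite when summed with their near-identical copies (below). The count of 107 was 61 without MLg SHHN replicate 3, 62 with MLg SHHN replicate 1 left out and 67 with MLg control replicate 2 left out.

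Near-identical gene copies need separate mention, since fragments can be split between them. Rps27, a ribosomal protein gene, had the largest difference of the opposite genes, -13.95 (SE 0.61), with 1619, 7184 and 4576 FPKM in NIH-3T3 control, 5.59, 4.20 and 5.54 with SHHN, 5.83, 6.87 and 4.84 in MLg control and 187, 199 and 85.2 with SHHN. Its copy Rps27rt was high where Rps27 was low. The sum of both copies averaged 6127, 5867, 4917 and 3993 FPKM in the same 4 groups, and the difference on the sum was 0.22 (adjusted p = 0.674), so the value for Rps27 alone is uncertain. For Rnaset2a the difference was -4.83 alone and -0.75 when summed with Rnaset2b, still called, but on the sum its MLg effect was 0.15 (adjusted p = 0.545), so it was no longer opposite. For Amd1, of the class called in NIH-3T3 alone, it was -6.89 alone and -0.57 when summed with Amd2 (adjusted p = 0.0926), no longer called. Histone gene copies such as Hist1h2bc, whose difference was 3.22, and Npcd, whose exons overlap those of Cbx6 and Nptxr on the same strand (-3.01), are uncertain for the same reason.

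**Figure D2:**
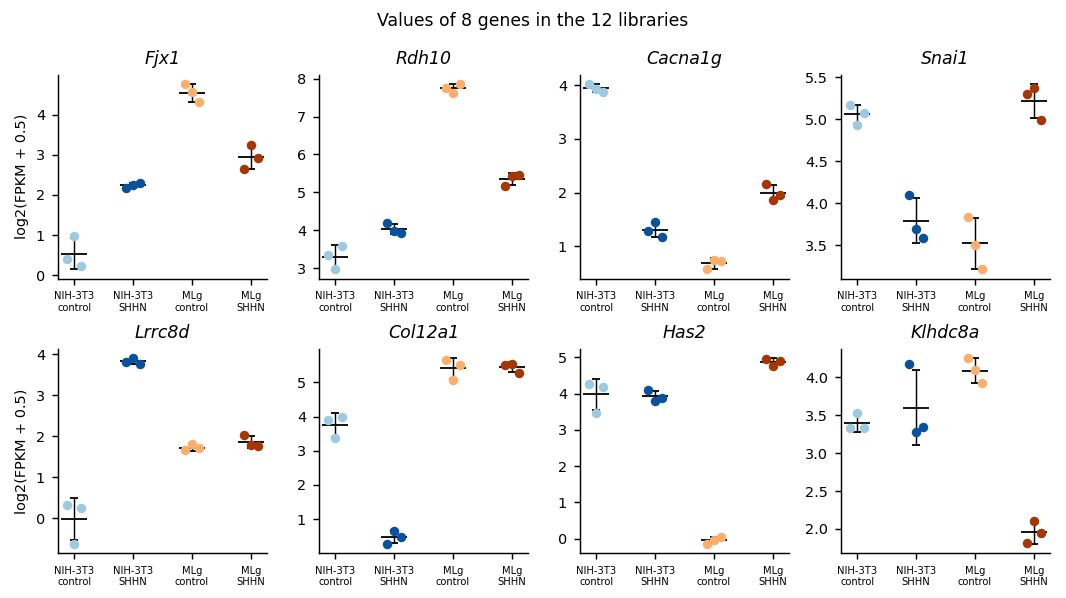
FPKM of 8 genes on the scale log2(FPKM + 0.5), with 1 point per library, 4 groups per panel, and black marks for the mean and SD of the 3 libraries. Fjx1, Rdh10, Cacna1g and Snai1 moved in opposite directions, Lrrc8d and Col12a1 in NIH-3T3 alone, and Has2 and Klhdc8a in MLg alone.

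Where the lines started differed between the classes. Of the 63 opposite genes that rose in NIH-3T3, 55 had the lower control mean in NIH-3T3. Of the 44 that fell there, 38 had the higher control mean in NIH-3T3. Over all 10739 genes NIH-3T3 had the lower control mean for 5292 and the higher for 5446. The distance between the lines was smaller with SHHN than in control for 43 of the 63 and 30 of the 44, and for 5746 of all genes. The control libraries enter both the starting level and the effect, so these counts are a description and were not tested.

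Among genes called in NIH-3T3 alone, the channel subunit Lrrc8d, the troponin Tnni1 and the forkhead gene Foxd2 had the largest differences above 0 after the pseudogene Rpl34-ps1 (9.25, and -0.16 when summed with Rpl34). The fibril-associated collagen gene Col12a1 had the largest below 0 apart from the uncertain Amd1. Lrrc8d, part of the volume-regulated anion channel (chr5:105699969-105832436), read 0.755, 0.153 and 0.684 FPKM in NIH-3T3 control, 13.5, 14.5 and 13.2 with SHHN, 2.66, 2.99 and 2.77 in MLg control and 3.62, 2.94 and 2.90 with SHHN. The NIH-3T3 libraries crossed from below to above those of MLg, whose own groups overlapped. The MLg effect was 0.14 (SE 0.21) and the difference 3.71 (SE 0.29, adjusted p = 4.65e-06). Foxd2 read 6.50, 6.07 and 4.17 FPKM in NIH-3T3 control, 63.2, 59.7 and 56.5 with SHHN, 8.05, 9.24 and 6.62 in MLg control and 4.66, 11.6 and 8.76 with SHHN, a difference of 3.34 (SE 0.36). Tnni1, slow skeletal troponin I, differed by 3.48 (SE 0.60), with 1 of the MLg control libraries at 3.51 FPKM and the others at 0.466 and 0.376.

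Col12a1 (chr9:79598991-79718831) read 14.5, 9.75 and 15.3 FPKM in NIH-3T3 control, 0.718, 1.08 and 0.904 with SHHN, 49.4, 32.9 and 45.1 in MLg control and 45.0, 46.2 and 38.5 with SHHN. The NIH-3T3 groups were far apart and the MLg groups overlapped (difference -3.31, SE 0.26, adjusted p = 5.09e-06). Gpc6, a glypican of the cell surface, fell from 42.0 ± 11.1 to 8.01 ± 3.45 FPKM in NIH-3T3 and went from 22.7 ± 4.65 to 34.1 ± 1.05 in MLg, where its effect was not called (it was on the 6 libraries of MLg alone, adjusted p = 0.0183). Follistatin (Fst), which binds activin, fell from 12.3 ± 3.44 to 1.24 ± 0.197 FPKM in NIH-3T3, beside 8.99 ± 1.74 and 8.87 ± 0.632 in MLg (difference -2.84, SE 0.28). Of the 654 genes in this class, 276 changed at least 2-fold in NIH-3T3 with an MLg interval inside 2-fold, 159 of them upward. The class held 992 genes without NIH-3T3 control replicate 2.

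Has2 led the genes called in MLg alone. This hyaluronan synthase (chr15:56665627-56694539) read 18.8, 10.6 and 17.8 FPKM in NIH-3T3 control, 16.6, 13.3 and 14.3 with SHHN, 0.411, 0.478 and 0.539 in MLg control and 30.8, 26.7 and 29.3 with SHHN. MLg went from far below the NIH-3T3 level to above it, and the NIH-3T3 groups overlapped. The NIH-3T3 effect was -0.05 (SE 0.18), the MLg effect 4.92 (SE 0.18) and the difference -4.97 (95% interval -5.52 to -4.41, adjusted p = 1.34e-07). Has2 shares 182 exon bases with the antisense gene Has2os, which averaged at most 1.94 FPKM in any group. Ebf1, a transcription factor of adipocyte and B cell precursors, read 84.8, 54.7 and 90.4 FPKM in NIH-3T3 control, 44.1, 57.3 and 68.9 with SHHN, 3.33, 4.72 and 5.37 in MLg control and 27.8, 27.5 and 29.8 with SHHN. Here MLg rose but stayed below the lowest NIH-3T3 library. Scara5, a ferritin receptor, and the Wnt receptor Fzd4 showed the same order, with differences of -2.80 and -2.16. The NIH-3T3 effect of Ebf1 (-0.42) was called with the length and GC correction (adjusted p = 0.0277) and without NIH-3T3 control replicate 2 (0.0188), which made Ebf1 opposite. That of Scara5 (0.28) came to 0.60 without NIH-3T3 SHHN replicate 1 and was then called (0.00147).

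The genes that fell in MLg alone were led by Antxr1, Klhdc8a, Ly6a and Id3. Klhdc8a, a kelch-domain protein, read 9.56, 11.02 and 9.54 FPKM in NIH-3T3 control, 17.5, 9.19 and 9.66 with SHHN, 18.5, 16.5 and 14.6 in MLg control and 3.01, 3.81 and 3.35 with SHHN. MLg fell below every NIH-3T3 library, and 1 NIH-3T3 SHHN library lay above the rest of its group (difference 2.33, SE 0.28). Antxr1, a collagen-binding receptor, fell in MLg from 71.8 ± 8.06 to 23.0 ± 1.09 FPKM, and read 63.2, 50.6 and 66.1 in NIH-3T3 control and 50.5, 171 and 139.7 with SHHN. The NIH-3T3 libraries spread widely with SHHN, and the difference was 2.45 (SE 0.45). Without NIH-3T3 SHHN replicate 1 the NIH-3T3 effect went from 0.83 to 1.37 and was called (adjusted p = 2.13e-05), so that Antxr1 was then opposite. Id3, a BMP-induced inhibitor of bHLH factors, differed by 1.92 (SE 0.40). For Ly6a, the stem cell antigen Sca-1, the difference was 2.32 (SE 0.64, adjusted p = 0.0297), and the call was lost without any MLg SHHN library, MLg control replicate 1, NIH-3T3 SHHN replicate 2 or 3, or NIH-3T3 control replicate 3 (adjusted p 0.0501 to 0.0791). Its NIH-3T3 effect of 0.38 came to 1.03 without NIH-3T3 SHHN replicate 1 and was then called (adjusted p = 0.0354), which made Ly6a opposite too. The NIH-3T3 effect of Id3 was called without NIH-3T3 control replicate 1 (0.0228). The class of 250 held 95 genes with a 2-fold change in MLg and an NIH-3T3 interval inside 2-fold, 50 of them upward. It counted 137 genes without MLg SHHN replicate 3, 158 without MLg control replicate 2 and 402 without NIH-3T3 control replicate 2.

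Among genes that moved the same way, Sertad4 and Hes1 rose more in NIH-3T3. Hes1, a repressor downstream of Notch and Hedgehog, read 0.162, 0.0477 and 0.588 FPKM in NIH-3T3 control, 67.5, 40.5 and 45.2 with SHHN, 1.67, 1.66 and 0.923 in MLg control and 13.5, 14.7 and 14.9 with SHHN. NIH-3T3 started lower and ended higher than MLg (effects 6.10 and 2.98, difference 3.12, SE 0.36). Sertad4 went from 6.26 ± 0.523 to 106 ± 10.4 FPKM in NIH-3T3 and from 30.0 ± 2.54 to 47.3 ± 4.83 in MLg, a difference of 3.33 (SE 0.17). The complement component C3 fell from 45.5 ± 8.03 to 1.47 ± 0.718 FPKM in NIH-3T3 and from 76.8 ± 33.7 to 23.3 ± 2.21 in MLg (difference -2.99, SE 0.41). The monocyte chemokine Ccl7 differed by -2.59 (SE 0.32).

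Larger effects in MLg were found for Steap4, a metalloreductase, which read 0.241, 0.0260 and 0.365 FPKM in NIH-3T3 control, 0.641, 3.63 and 4.12 with SHHN, 1.56, 0.500 and 0.773 in MLg control and 25.7, 27.5 and 29.0 with SHHN. Only 2 of the NIH-3T3 SHHN libraries rose well above the controls, and the difference of -2.33 (SE 0.60, adjusted p = 0.0216) lost its call at a pseudocount of 0.1 (-1.78, adjusted p = 0.211). It was also lost without MLg SHHN replicate 3 (adjusted p = 0.0539), MLg control replicate 2 (0.0603) or NIH-3T3 control replicate 3 (0.0550). The cadherin Cdh17 had effects of 1.35 in NIH-3T3 and 3.24 in MLg. The sphingosine receptor S1pr1 and the collagen receptor Mrc2 fell in both lines, more in MLg, with differences of 1.30 and 1.16. The 173 genes with the larger effect in NIH-3T3 were 97 without MLg SHHN replicate 2, 106 without MLg SHHN replicate 3, 108 without MLg control replicate 2 and 115 without MLg SHHN replicate 1. The 57 with the larger effect in MLg were 30 without MLg SHHN replicate 3 or NIH-3T3 SHHN replicate 2, 32 without MLg SHHN replicate 1, 35 without NIH-3T3 control replicate 3, 36 with MLg SHHN replicate 2 left out and 37 with MLg control replicate 2 left out. At the other end, Mns1, Esco2, Clec2d and Gchfr had called effects in both lines and differences nearest 0. Esco2, a cohesin acetyltransferase, rose by 2.76 in each line, with a 95% interval of the difference of -1.03 to 1.04. Clec2d, a ligand of natural killer cell receptors, fell by 2.22 and 2.21, with an interval of -0.57 to 0.57.

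Of 24 Hedgehog genes in the comparison 13 rose and 7 fell in NIH-3T3 (median effect 0.66), and 10 rose and 4 fell in MLg (median 0.07). Over all 10739 genes, 1861 rose and 1595 fell in NIH-3T3, and 1398 rose and 1013 fell in MLg. The difference was called above 0 for 8 of the 24 and below 0 for 1, beside 733 and 557 of all 10739. The median difference of the 24 was 0.11, beside -0.03 for all 10739 genes. It ran from 0.02 to 0.28 when 1 library was left out, except without NIH-3T3 control replicate 2, where it was -0.18. Gli1 and Ptch1, which the pathway itself induces, rose in both lines. Gli1, the transcriptional activator, read 0.129, 0.0840 and 0.179 FPKM in NIH-3T3 control, 151, 149.8 and 139 with SHHN, 0.906, 0.428 and 0.414 in MLg control and 128, 118 and 113 with SHHN. All 6 SHHN libraries were far above their controls, and the NIH-3T3 controls were lower than those of MLg. The difference was 1.04 (SE 0.22, adjusted p = 0.00672), on a scale that gives values under 0.5 FPKM little weight, and 1.80 at a pseudocount of 0.1. Ptch1, the ligand's receptor, read 2.27, 2.24 and 2.65 FPKM in NIH-3T3 control, 139, 160.1 and 114 with SHHN, 3.68, 2.32 and 3.63 in MLg control and 286, 249 and 244 with SHHN. It ended higher in MLg, and its difference of -0.58 (95% interval -1.08 to -0.08, adjusted p = 0.119) was not called. It was called with the length and GC correction and the replicate block together (-0.48, adjusted p = 0.0427).

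The activator Gli2 read 9.09, 6.77 and 7.64 FPKM in NIH-3T3 control, 52.5, 57.9 and 43.4 with SHHN, 18.9, 15.4 and 17.5 in MLg control and 44.2, 44.1 and 37.7 with SHHN. The 2 lines came to similar levels from a lower start in NIH-3T3, and the difference was 1.38 (SE 0.20, adjusted p = 5.32e-04). Smo, the signal transducer, read 159, 106 and 101 FPKM in NIH-3T3 control, 325, 297 and 255 with SHHN, 212, 205 and 189 in MLg control and 161, 210.0 and 174 with SHHN. It rose in NIH-3T3, while in MLg the groups overlapped and the effect was -0.16 (difference 1.44, SE 0.24, adjusted p = 0.00132). The kinesin Kif7 was called in NIH-3T3 alone (difference 0.62, adjusted p = 0.0411), a call lost with the length and GC correction (0.36, adjusted p = 0.0739) and in 9 of the 12 fits that leave out 1 library, at up to 0.111 without NIH-3T3 SHHN replicate 2.

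Among reported targets, cyclin D1 (Ccnd1) rose from 23.4 ± 2.64 to 72.8 ± 16.7 FPKM in NIH-3T3, beside 32.8 ± 2.39 and 39.3 ± 0.900 in MLg (difference 1.33, SE 0.22). Foxc2 and Rasl11b rose in both lines and more in NIH-3T3 (1.06, adjusted p = 0.0256, and 0.99, adjusted p = 0.0347), and lost the call in 5 and 8 of the 12 fits that leave out 1 library, at up to 0.0686 without NIH-3T3 SHHN replicate 2 for Foxc2 and 0.0815 without MLg SHHN replicate 1 for Rasl11b. The MLg effect of Foxc2 (0.66, adjusted p = 0.0297) was itself lost in 5 of those fits (up to 0.137 without MLg SHHN replicate 2), with no filter, with quantile normalization and on 6 libraries. Osr1, a mesenchymal transcription factor, fell in both lines and more in NIH-3T3 (-1.21, SE 0.26). The survival gene Bcl2 rose by 1.60 and 1.67, with a 95% interval of the difference of -0.48 to 0.34. Sox18 and the cortisone reductase Hsd11b1 rose strongly in both lines, with differences of -0.57 and -0.42 that were not called. Both depended on the processing, since Hsd11b1 came to -1.03 at a pseudocount of 1 (adjusted p = 0.0103) and Sox18 to -0.91 with the length and GC correction (0.0316). The co-receptor gene Gas1 fell by 1.44 in NIH-3T3 and 2.15 in MLg, a difference of 0.71 (adjusted p = 0.162) that was called with the replicate block (adjusted p = 0.0230). The differences of Boc, Cdon, Disp1, Gli3, Sufu, Ccnd2, Sfrp1, Foxf1, Foxf2 and Gpr161 were not called, though with the length and GC correction those of Sufu (-0.55, adjusted p = 0.0123) and Ccnd2 (-0.41, 0.0395) were. Without NIH-3T3 SHHN replicate 1, Sfrp1 (0.85) came to 1.32 (adjusted p = 0.000821) and Sox18 to -0.71 (0.0382), and without NIH-3T3 control replicate 2 Sox18 (0.0426) and Ccnd2 (0.0133) were called. Mycn, a proliferation factor, was at or near 0 in MLg and so lies outside the comparison, and it went from 2.01, 1.72 and 1.62 FPKM to 14.2, 16.3 and 15.8 in NIH-3T3. Bmp4 was near 0 in NIH-3T3 and fell from 30.2 ± 3.24 to 11.5 ± 0.184 FPKM in MLg, a difference of 1.20 that lost its call at a pseudocount of 0.1 (0.93, adjusted p = 0.138).

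**Figure D3:**
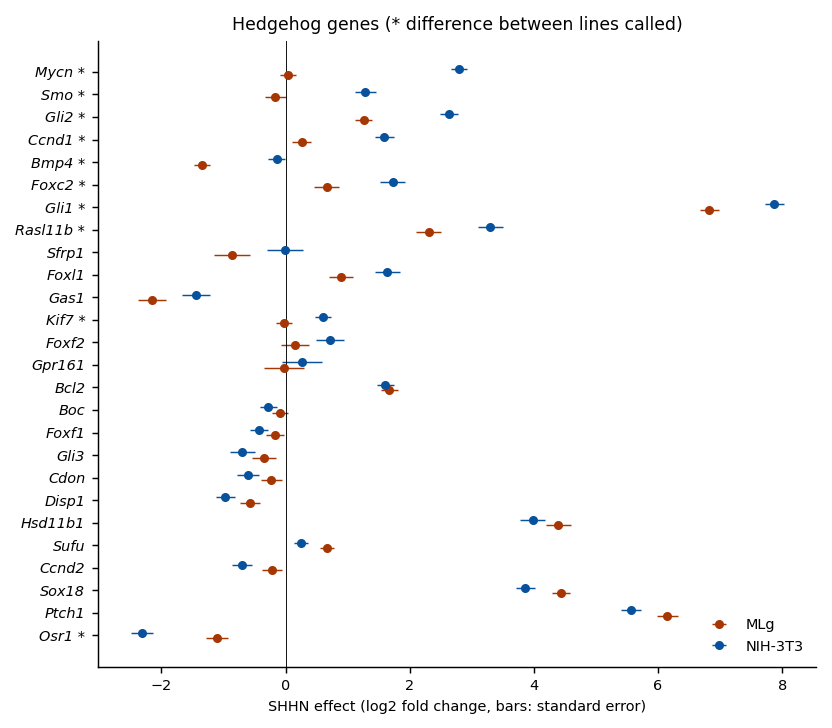
SHHN effects of tested Hedgehog genes as log2 fold change with standard error, blue for NIH-3T3 and brown for MLg, ordered by the difference. Gli1, Ptch1, Sox18 and Hsd11b1 lie far to the right in both lines, and the points of Smo, Ccnd1 and Mycn lie apart, with MLg near 0.

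Cell cycle genes rose in both lines, and 12 of 27 mitotic ones rose more in NIH-3T3. In each line the 28 genes of the G1/S and replication list all rose, with median effects of 1.78 in NIH-3T3 and 1.87 in MLg. Only E2f2 and Rrm2 of these had a called difference (2 above 0, none below), and the median difference was -0.08, with either sign under other scalings (-0.05 to 0.02). The call of Rrm2 (adjusted p = 0.0487) held in 1 of the 12 fits that leave out 1 library, that without MLg control replicate 1. E2f2 (0.0220) lost it without MLg SHHN replicate 2 (0.0613) and with the replicate block (0.0543, and 0.0879 with the length and GC correction added), and its difference of 0.83 fell to 0.56 with quantile normalization (0.144) and was 1.66 at a pseudocount of 0.1. All 27 G2/M and mitosis genes also rose in each line, with medians of 2.85 and 2.03. Of these, 12 had a called difference above 0 and 1 below, and the median difference was 0.70, between 0.58 and 0.81 when libraries were left out. The number of calls ranged from 5 to 14 in those fits, and was under 9 without MLg SHHN replicate 1 (8) or 2 (5), MLg control replicate 3 (7), or NIH-3T3 SHHN replicate 2 (7) or 3 (6). Of the 12 genes called above 0, Cdc20, Aurka, Plk1 and Kif20a kept the call in each of those fits.

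Cdc20, an activator of the anaphase-promoting complex, read 9.49, 8.35 and 6.86 FPKM in NIH-3T3 control, 63.5, 67.9 and 75.0 with SHHN, 9.21, 9.95 and 9.40 in MLg control and 33.8, 26.3 and 36.7 with SHHN. The controls overlapped between the lines and the SHHN libraries did not (difference 1.30, SE 0.20, adjusted p = 8.77e-04). The mitotic kinase gene Aurka read 1.99, 1.43 and 1.96 FPKM in NIH-3T3 control, 16.8, 18.1 and 21.1 with SHHN, 5.19, 5.95 and 5.39 in MLg control and 21.3, 17.3 and 23.4 with SHHN. Here the lines differed at the start and overlapped with SHHN (difference 1.26, SE 0.21). The kinase Plk1 and the cyclins Ccnb1, Ccnb2 and Ccna2 were likewise called above 0, with differences of 1.17, 0.93, 1.38 and 1.15. Each of these 4 had the lower control mean in NIH-3T3. The exception was Top2a, topoisomerase II alpha, which rose from 39.9 ± 9.81 to 127 ± 16.9 FPKM in NIH-3T3 and from 21.6 ± 6.53 to 189.9 ± 21.4 in MLg (difference -1.46, SE 0.30).

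**Figure D4:**
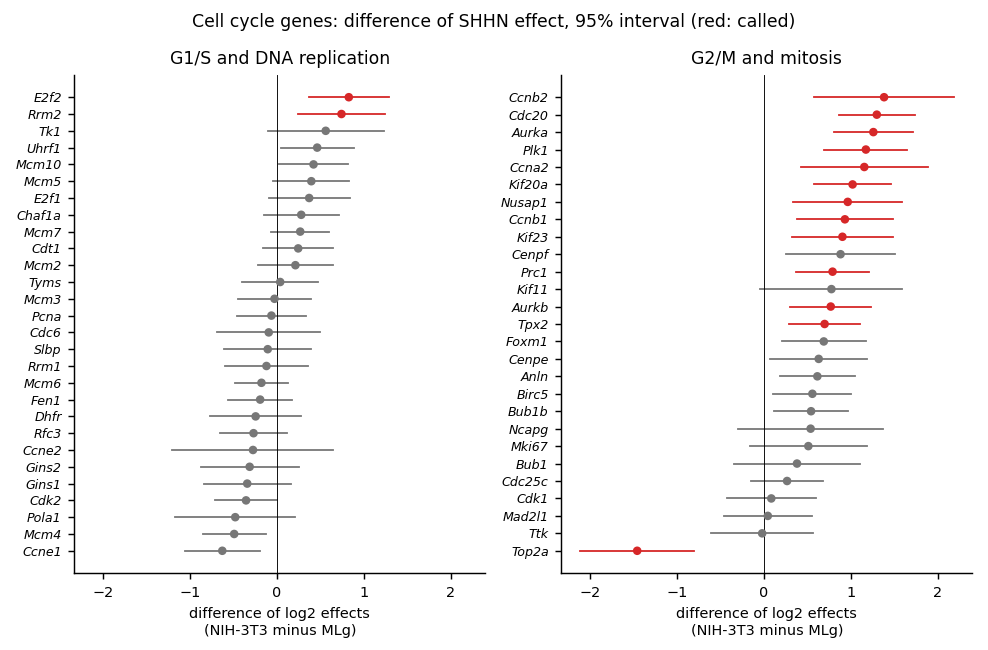
Difference of SHHN effect (NIH-3T3 minus MLg, log2) for the G1/S and G2/M genes, with the 95% interval of each gene as a bar and called differences in red. The G1/S genes lie on both sides of 0, and of the 27 G2/M genes 12 are called above 0 and Top2a below.

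The promoters of these 2 groups carry different short motifs in the reference sequence. The promoters of Cdc20 and Aurka (G2/M), E2f2 (G1/S) and Csf1 (interleukin and NF-kB list) are printed so that the letters behind the counts can be seen. They are 300-base windows (250 before and 50 after the start site) from RefSeq on GRCm38.p6, each read 5′ to 3′ on the gene's own strand: Cdc20 at chr4:118437294-118437593 (minus strand), Aurka at chr2:172370521-172370820 (minus), E2f2 at chr4:136172024-136172323 (plus) and Csf1 at chr3:107760420-107760719 (minus). Capitals mark the cell cycle homology element TTTGAA and the CCAAT box in Cdc20 and Aurka, the E2F motif TTTGGCGC and a CCAAT box in E2f2, and in Csf1 the NF-kB motif, which lies on the other strand.
Cdc20: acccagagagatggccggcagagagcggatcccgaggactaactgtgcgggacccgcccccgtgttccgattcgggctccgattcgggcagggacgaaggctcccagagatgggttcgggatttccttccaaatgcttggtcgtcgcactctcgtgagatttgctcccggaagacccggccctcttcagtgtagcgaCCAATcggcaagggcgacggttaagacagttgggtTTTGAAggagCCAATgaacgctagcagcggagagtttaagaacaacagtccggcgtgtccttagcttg
Aurka: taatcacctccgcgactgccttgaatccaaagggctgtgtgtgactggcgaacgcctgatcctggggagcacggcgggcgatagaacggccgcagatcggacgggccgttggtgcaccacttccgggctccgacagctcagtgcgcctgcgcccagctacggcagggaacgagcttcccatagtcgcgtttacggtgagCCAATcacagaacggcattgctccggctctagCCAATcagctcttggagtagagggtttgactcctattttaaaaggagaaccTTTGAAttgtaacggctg
E2f2: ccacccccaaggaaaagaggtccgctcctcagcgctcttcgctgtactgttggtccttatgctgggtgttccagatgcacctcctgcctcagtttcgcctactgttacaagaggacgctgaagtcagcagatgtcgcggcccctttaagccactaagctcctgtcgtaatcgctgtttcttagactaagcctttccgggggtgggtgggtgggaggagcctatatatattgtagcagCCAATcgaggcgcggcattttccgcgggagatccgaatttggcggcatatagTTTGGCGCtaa
Csf1: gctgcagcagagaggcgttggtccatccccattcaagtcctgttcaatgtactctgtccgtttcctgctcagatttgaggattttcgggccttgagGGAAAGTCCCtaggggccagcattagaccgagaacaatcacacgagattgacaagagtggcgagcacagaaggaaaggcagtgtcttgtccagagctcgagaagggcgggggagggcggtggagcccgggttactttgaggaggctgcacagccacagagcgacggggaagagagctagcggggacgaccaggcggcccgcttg
In Cdc20 the TTTGAA begins at -18 from the start site and the CCAAT boxes at -53 and -8. In Aurka they begin at 32, -51 and -19. Both strands were searched in every promoter. TTTGAA was found in 15 of 21 G2/M promoters in the table (71.4%) and 3 of 23 G1/S promoters (13.0%), beside 20.2% of all 27025 promoters and 13.7% of the 8269 found for the compared genes. The E2F motif, searched as TTTGGCGC or TTTCCCGC, was found in 10 of 23 G1/S promoters (43.5%) and 1 of 21 G2/M promoters, beside 1.80% of all. CCAAT was found in 17 of 21 G2/M and 16 of 23 G1/S promoters, beside 41.1% of all. Of the 129 promoters found for genes that moved the same way with the larger effect in NIH-3T3, 35 (27.1%) held TTTGAA, and of the 78 for opposite genes 11 (14.1%) did. The Gli motif GACCACCCA was found in 0.289% of all promoters and in none of the 14 of the Hedgehog list. For the NF-kB motif a match was found in 2 of 12 promoters of the interleukin and NF-kB list, so Csf1 is not typical of that list. It was found in 1 of 21 G2/M promoters and 0 of the 78 for opposite genes, beside 0.174% of all. Among the 68 promoters found for the 110 named genes, that of Csf1 was the 1 match. A match says that the letters are present in the window and nothing about binding.

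Across the gene lists 151 genes had a called difference, and 108 of them kept it in each of the 12 fits that leave out 1 library. The other 43 lost it in at least 1, at an adjusted p of up to 0.120. Among genes named below, these were Il1r1, Dcn, Lum, Fbln2, Fbn1, Loxl1, Tmem2, Fzd2, Lgr4, Hoxa6, Klf2, Errfi1, Idi1, Cyp51, Ndrg1, Egln3, Ldha and Scd1. For Fbln2 only the fit without MLg SHHN replicate 3 lost it (0.0539). At least 6 of the 12 fits lost it for Il1r1, Ldha, Scd1, Idi1, Cyp51, Dcn, Loxl1, Ndrg1, Lum, Fbn1, Lgr4, Hoxa6, Errfi1 and Tmem2. With the replicate block 12 of the 151 lost the call (adjusted p up to 0.0868), among them Il1r1 (0.0664), Fbn1 (0.0868), Ldha (0.0743) and Ndrg1 (0.0536). With the block in MLg alone 11 did, among them Dcn (0.0665), Lgr4 (0.0614), Scd1 (0.0731), Il1r1 (0.0790), Fbn1 (0.0613) and Ldha (0.0681). Beside the 12.01% of all compared genes, the counts called for the cholesterol (3 of 23), interferon (2 of 15) and G1/S (2 of 28) lists are near or under the background and no result about those lists.

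Inhibitors and damage-response genes moved differently. Cdkn1a, the CDK inhibitor p21, read 22.8, 23.8 and 25.8 FPKM in NIH-3T3 control, 22.1, 21.0 and 23.8 with SHHN, 17.6, 17.7 and 16.4 in MLg control and 61.5, 48.1 and 53.7 with SHHN. It rose in MLg alone, and its difference was -1.73 (SE 0.16, adjusted p = 1.39e-05). Plk2, a stress-induced polo-like kinase, rose in NIH-3T3 from 25.3 ± 1.17 to 81.3 ± 1.73 FPKM and went from 48.0 ± 12.6 to 36.7 ± 4.82 in MLg without a called effect (difference 2.02, SE 0.24). Of 21 genes on the p53 and CDK inhibitor list, 3 were called above 0 (Plk2, Bbc3 and Gadd45g) and 2 below (Cdkn1a and Btg2).

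Of 17 interleukin and NF-kB genes, 7 had a called difference and all 7 lay below 0. The median difference was -0.67, and it lay between -0.97 and -0.42 when 1 library was left out. Csf1, the macrophage growth factor whose promoter is printed above, read 83.7, 91.3 and 92.5 FPKM in NIH-3T3 control, 40.5, 23.8 and 25.7 with SHHN, 48.9, 55.5 and 51.1 in MLg control and 70.0, 73.2 and 71.2 with SHHN. The NIH-3T3 libraries fell, and the MLg libraries with SHHN lay above their controls, where the effect of 0.46 was not called (adjusted p = 0.0522; difference -2.06, SE 0.22). It was called on the 6 libraries of MLg alone (0.00526) and without NIH-3T3 SHHN replicate 1 (0.00343) or 2 (0.0388) or NIH-3T3 control replicate 2 (0.0488), and Csf1 was then opposite. The adhesion molecule Vcam1 fell from 56.6 ± 7.10 to 8.87 ± 0.859 FPKM in NIH-3T3 and from 34.2 ± 4.20 to 19.6 ± 1.25 in MLg (difference -1.82, SE 0.18). The NF-kB regulators Bcl3 and Nfkbiz fell in both lines and further in NIH-3T3 (-2.03 and -1.55). Tnfaip2 did so too (-1.51), Il1r1 fell in NIH-3T3 alone (-0.91), and the prostaglandin synthase Ptges fell in NIH-3T3 and rose in MLg (-1.01). Summed macrophage and leukocyte markers ranged from 1.70 to 3.16 FPKM in NIH-3T3 libraries and from 4.92 to 7.79 in MLg, with 1 of the 8 at or above 1 FPKM on average in each group and the defining genes Adgre1 and Tyrobp at 0. Their part in these results was not tested.

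Of the 9 chemokines 6 fell in NIH-3T3 and 8 in MLg, beside 1595 and 1013 of all 10739 genes, and 0 had a called rise. The median effects were -1.58 in NIH-3T3 and -1.66 in MLg. Their differences split, with 2 called above 0 and 3 below. Ccl2 and Ccl7 fell in both lines and further in NIH-3T3 (-2.34 and -2.59), and Ccl5 fell in NIH-3T3 alone (-2.90), while Cxcl12 and Cx3cl1 fell in MLg alone (1.09 and 1.90). Cxcl12, which retains progenitor cells, went from 1786 ± 262 to 661 ± 28.1 FPKM in MLg and from 295 ± 24.8 to 238 ± 50.6 in NIH-3T3. Of 9 complement genes C3 and C1s1 were called below 0, and Serping1 and Masp1 above. Serping1, the C1 inhibitor, rose from 0.139 ± 0.0366 to 3.11 ± 0.473 FPKM in NIH-3T3, beside 57.3 ± 7.07 and 46.5 ± 4.07 in MLg. Of 15 interferon-stimulated genes Cmpk2 and Isg15 were called above 0 (2.42 and 1.72). Cmpk2 rose in both lines, and Isg15 fell in MLg alone. Most of the list went down: of the 15, 7 fell and 1 rose in NIH-3T3, and 10 fell and 1 rose in MLg. The median effects were -0.50 and -0.61, and Cmpk2 was the 1 that rose.

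Matrix genes moved in both directions. Of 27 matrix and crosslinking genes 7 were called above 0 and 10 below. The small proteoglycan genes Dcn and Lum fell in NIH-3T3 alone (-1.22 and -1.49), and Aspn fell there and rose in MLg (-2.34). Tenascin-C (Tnc) fell from 11.1 ± 1.70 to 3.29 ± 2.28 FPKM in NIH-3T3 and rose from 16.3 ± 1.52 to 36.7 ± 3.47 in MLg (difference -2.92, SE 0.42). Postn, periostin, fell in NIH-3T3 from 894 ± 78.0 to 391 ± 35.4 FPKM and read 16.3 ± 2.29 and 19.4 ± 1.31 in MLg, with a difference of -1.44. Versican (Vcan) rose in MLg alone, from 48.0 ± 9.98 to 145 ± 8.62 FPKM (-1.54). On the other side, Thbs2, Fbn1 and Loxl1 fell in MLg alone (1.56, 0.89 and 1.17), and Fbln2, Mfap4 and Plod1 rose more in NIH-3T3 or there alone (0.76, 1.21 and 0.74).

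Of 18 collagen genes 1 was called above 0 and 4 below. The basement membrane chains Col4a1 and Col4a2 rose in both lines and more in MLg (-1.36 and -1.14), Col16a1 rose in MLg alone (-1.39), and Col11a1 rose in NIH-3T3 alone (1.15). The NIH-3T3 effect of Col16a1 (-0.35) was called with the length and GC correction (-0.68, adjusted p = 1.32e-04) and with the replicate block (0.0366). Col16a1 was then opposite. Of 8 hyaluronan genes 4 were called, all below 0, with a median of -0.71. Beside Has2 these were the hyaluronan receptor Cd44, which rose from 16.1 ± 4.19 to 34.2 ± 1.89 FPKM in NIH-3T3 and from 14.3 ± 2.13 to 70.8 ± 4.66 in MLg (-1.18), and Tnfaip6 and Tmem2, which fell in NIH-3T3 alone (-2.20 and -0.86). Of 21 proteases and inhibitors 2 were called above 0 and 6 below. The gelatinase gene Mmp9 fell in NIH-3T3 alone, from 29.4 ± 3.78 to 5.70 ± 0.834 FPKM (-2.23), and Timp3, an inhibitor of metalloproteases, rose in MLg alone, from 64.2 ± 19.7 to 244 ± 3.71 (-1.76). Mmp19 fell further in NIH-3T3 (-1.53) and shares 789 exon bases with Tmem198b on the other strand. Of 18 contractile genes 1 was called above 0 and 3 below, among them the tropomyosins Tpm4 and Tpm1, which fell in NIH-3T3 alone (-1.79 and -1.40). Summed smooth muscle and pericyte markers ran from 94.4 to 179.7 FPKM in NIH-3T3 libraries and from 298 to 363 in MLg. Most of this was Acta2, which averaged 104 FPKM in NIH-3T3 control, 79.9 with SHHN, 315 in MLg control and 293 with SHHN. Cspg4 averaged up to 44.1 FPKM (NIH-3T3 SHHN), and Mcam and Cnn1 up to 7.01 and 2.27 (MLg control). Myh11, Des and Rgs5 averaged under 0.5 FPKM in every group. The part of these markers in the results was not tested.

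Signalling genes also split. Of 25 TGF-beta and BMP genes 6 were called above 0 and 4 below. The activin subunit Inhba rose from 3.83 ± 0.297 to 49.3 ± 19.8 FPKM in NIH-3T3 and from 13.6 ± 2.32 to 32.3 ± 3.72 in MLg (2.23), and the BMP antagonist Chrd rose in NIH-3T3 and fell in MLg (1.86). Tgfb3 was opposite in the same sense (1.02), and Tgfbr3 fell in NIH-3T3 alone (-1.05). Of 30 growth factor genes 8 were called above 0 and 4 below. The neurotrophin Bdnf rose in NIH-3T3 alone (1.81), and Spry4, a feedback inhibitor of receptor tyrosine kinases, rose in NIH-3T3 alone from 3.24 ± 0.241 to 9.80 ± 2.08 FPKM (1.47). Of 10 Wnt genes 2 were called above 0 (Fzd7 and Fzd2) and 1 below (Lgr4, -1.40). The call of Fzd2 (0.74) was lost without MLg control replicate 2 (adjusted p = 0.0519). Of 8 Notch genes 2 were called each way: Hes1 and Lfng above, Rbpj and Jag1 below. Of 7 retinoic acid genes Rdh10 and Rarg were called above 0, and Rara below.

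Of 26 mesenchymal transcription factors 4 were called above 0 and 8 below. Twist2 and Tbx18 rose in MLg alone (-1.78 and -1.48), Snai2 fell further in NIH-3T3 (-0.76), Osr2 and Tbx15 fell in NIH-3T3 alone (-1.43 and -0.80), and Sox9 rose more in MLg (-1.13). Snai1, above, was also among those below 0. Gata6 and Tbx3 fell in MLg alone (1.52 and 1.06), and Sox4 and Tbx4 rose in NIH-3T3 and fell in MLg (1.43 and 1.06). Of 9 Hox genes Hoxa4 was called above 0 and Hoxa6 below, the latter at an adjusted p of 0.0335 that was lost in 6 of the 12 fits that leave out 1 library, at up to 0.0885 without MLg control replicate 2. Of 18 immediate early genes Klf2 and Dusp1 were called above 0 and Nr4a1 below. The phosphatase gene Dusp1 fell in MLg alone, from 65.7 ± 10.1 to 17.7 ± 2.54 FPKM. Of 14 glucocorticoid and metallothionein genes 3 were called each way, Tsc22d3, Dusp1 and Klf9 above and Pdk4, Sgk1 and Errfi1 below. Pdk4 had the largest of these, -1.79 (SE 0.22).

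Of 23 cholesterol synthesis genes 13 rose in MLg and 1 in NIH-3T3, beside 1398 and 1861 of all 10739 genes, with median effects of 0.65 and -0.02. The difference was called for 3, all below 0, among them the isomerase Idi1 (-1.15) and the demethylase Cyp51 (-0.93, adjusted p = 0.0411). The median difference of the list was -0.62, between -0.82 and -0.50 when 1 library was left out, while the number of calls in those fits ran from 0 to 13. It was 0 without MLg SHHN replicate 3, MLg control replicate 1, NIH-3T3 SHHN replicate 2 or 3, or NIH-3T3 control replicate 3. It was 1 without MLg SHHN replicate 1 or 2 or MLg control replicate 2, 5 without MLg control replicate 3, 7 without NIH-3T3 control replicate 2 and 13 without NIH-3T3 SHHN replicate 1. Of 21 glycolysis and hypoxia genes 12 rose in NIH-3T3 and 1 in MLg, and 5 differences were called above 0 and 1 below (Ndrg1). The median difference was 0.37. Hexokinase 2 (Hk2) rose from 2.43 ± 0.341 to 7.49 ± 2.56 FPKM in NIH-3T3, beside 7.02 ± 1.06 and 7.21 ± 0.0671 in MLg (difference 1.36, SE 0.27). Ddit4, Ankrd37, Egln3 and Ldha were the others above 0 (1.04, 1.20, 1.03 and 0.61). Of 9 adipogenic genes Ebf1, Lpl and Scd1 were called below 0. Lipoprotein lipase (Lpl) rose in MLg from 0.656 ± 0.210 to 2.06 ± 0.448 FPKM and read 88.4 ± 15.2 and 54.2 ± 24.5 in NIH-3T3. The NIH-3T3 effect of Lpl (-0.81, adjusted p = 0.0570) was called with the length and GC correction (0.0291) and at a pseudocount of 1 (0.0485), which made it opposite. Its MLg effect lost the call without MLg SHHN replicate 3 (0.0629) or MLg control replicate 2 (0.0640).

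In 2 lists no difference was called: 22 ribosome biogenesis genes, with a median of -0.14, and 37 primary cilium genes, with a median of -0.02. At an unadjusted p under 0.05 there were 4 and 8. This does not show that the lines responded alike, and single genes came close, such as the nucleolar gene Gnl3 (-0.58, adjusted p = 0.0549) and the cilium gene Arl6 (0.63, adjusted p = 0.0596). Both were called with the replicate block (adjusted p = 0.0307 and 0.0410). Gnl3 was called without MLg SHHN replicate 1 (0.0318) or MLg control replicate 3 (0.0273), Nop56 without NIH-3T3 control replicate 1 (0.0463), Arl6 without NIH-3T3 control replicate 3 (0.0201) and Wdr34 without NIH-3T3 control replicate 2 (0.0204). Over all settings up to 3 and 7 genes of these lists were called, and the cilium median took either sign under other scalings (-0.03 to 0.01).

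**Figure D5:**
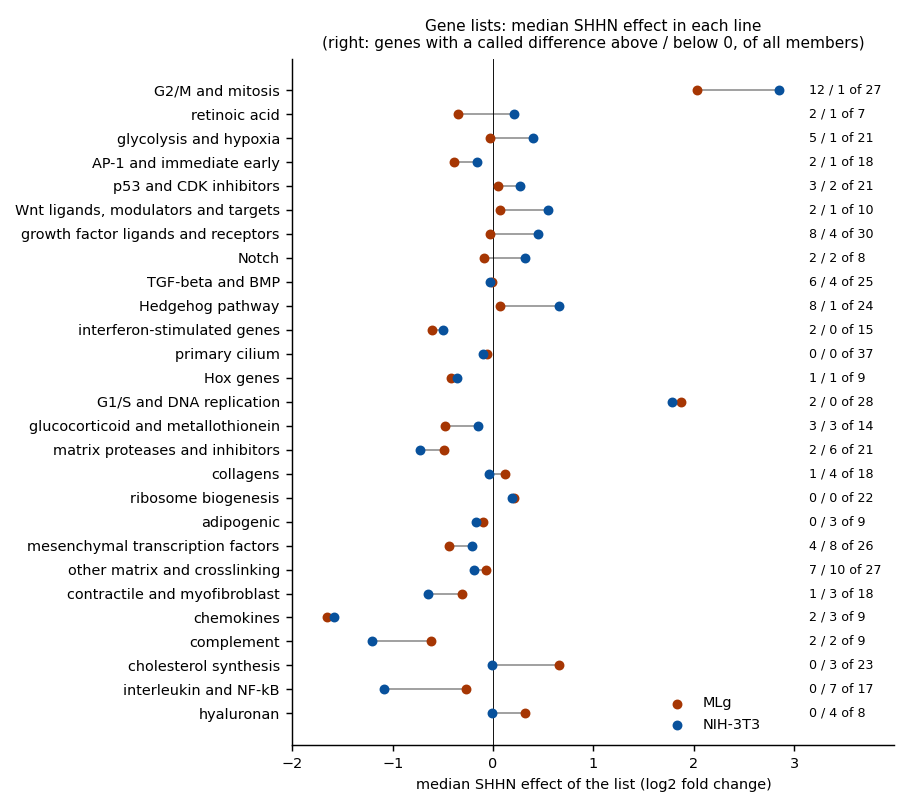
Median SHHN effect of each gene list in NIH-3T3 (blue) and MLg (brown) as log2 fold change, joined by a line and ordered by the median difference, with the numbers of called differences above and below 0 of all compared genes at the right. The G2/M, Hedgehog and glycolysis lists lie further right in NIH-3T3, and the cholesterol, hyaluronan and NF-kB lists further right in MLg.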

How the data were processed

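The authors deposited 1 table of FPKM values with a column for each of the 12 libraries. Per the submitters' processing notes bcl2fastq, TopHat2 2.0.12 and Cufflinks 2.2.1 were used with build mm10. Settings and strandedness are not given in the sources used here. Whole reads were not recovered, and no count test was run: among genes averaging under 0.02 FPKM, the commonest ratio between a pair of libraries (within 0.02 on the natural log scale) held for a median of 6.25% of genes and at most 25.3%. A stray line (1) was left out.

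The 12379 genes that reached 0.5 FPKM in 3 or more libraries were fitted on log2(FPKM + 0.5) with limma 3.58.1 (R 4.3.3), 4 group means over all 12 libraries, variance trend, and Benjamini-Hochberg adjustment over all genes at 0.05. The fit was tested on simulated data. Alternatives were other pseudocounts, filters, scalings and variances, a required 2-fold, a higher restriction, each library left out, a replicate block, a length and GC correction, and summed copies. The last 2 and the block in MLg alone were added after seeing the data.

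Members and gene lists were chosen with earlier results of these data known. Named genes were those with the largest called differences per class and without overlap of libraries in each line called (5 per direction of opposite genes, 4 for one line alone, 2 for the same direction), every tested Hedgehog gene, the 2 of smallest p per list, and 4 with differences nearest 0. Other list genes are examples or all those called, named after their values were seen. Results for some genes are not reported here.

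Same-numbered libraries of MLg deviated together (r 0.132, 0.157 and 0.241), and those of NIH-3T3 did not (-0.000703, -0.101 and 0.0269). Differently numbered libraries of MLg had r from -0.177 to 0.00857, and NIH-3T3 control 1 with SHHN 2 reached 0.138. The labels do not say whether the numbers pair the libraries. Gene positions are from GENCODE M21 (GRCm38, the assembly of mm10) and promoters from RefSeq. Some genes share exon bases with a neighbour on the other strand, and their fragments may be mixed.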

Additional observations from a re-analysis of the deposited data

Results flagged for a closer look

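For 86 of the 110 named genes the SHHN effects in the 2 lines differed by the test of the difference itself (NIH-3T3 minus MLg, log2, limma, adjusted p under 0.05, no explanation weighed). The values of 82 of them are collected here by the class they had in the report, which for Rps27, Rnaset2a and Amd1 did not hold on summed copies.

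Opposite responses lay above 0 for Fjx1 (3.31), Rdh10 (3.11), Negr1 (2.92), Chrnb1 (2.35), Itga7 (2.16), Fzd7 (1.75), Tsc22d3 (1.37) and Fbln5 (1.23). They lay below 0 for Rps27 (-13.95), Rnaset2a (-4.83), Cacna1g (-3.95), Agtr2 (-3.11), Ppap2b (-3.06), Snai1 (-2.96), Fgf7 (-2.20) and Nr4a1 (-1.40).

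Responses of NIH-3T3 alone lay above 0 for Lrrc8d (3.71), Tnni1 (3.48), Foxd2 (3.34), Hist1h2bc (3.22), Serping1 (2.79), Plk2 (2.02), Hoxa4 (1.497), Spry4 (1.47), Smo (1.45), Hk2 (1.36), Ccnd1 (1.33), Ddit4 (1.04), Fzd2 (0.74) and Kif7 (0.62). Those below 0 were Amd1 (-6.89), Col12a1 (-3.31), Npcd (-3.01), Gpc6 (-2.97), Fst (-2.84), Mmp9 (-2.23), Tnfaip6 (-2.20), Csf1 (-2.06), Tpm4 (-1.79), Rbpj (-1.46), Postn (-1.44), Hoxa6 (-1.44) and Tpm1 (-1.40).

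In MLg alone, genes that fell gave differences above 0, namely Antxr1 (2.45), Klhdc8a (2.33), Ly6a (2.32), Id3 (1.92), Cx3cl1 (1.90), Isg15 (1.72), Dusp1 (1.53) and Rarg (0.87). Genes that rose gave differences below 0, namely Has2 (-4.97), Ebf1 (-2.98), Scara5 (-2.81), Fzd4 (-2.16), Lpl (-1.96), Cdkn1a (-1.74) and Col16a1 (-1.39). For Cyp51 (-0.93) the effect was called in neither line.

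Rises larger in NIH-3T3 were those of Sertad4 (3.33), Hes1 (3.12), Cmpk2 (2.42), Gli2 (1.38), Cdc20 (1.30), Aurka (1.26), Foxc2 (1.06), Gli1 (1.04), Rasl11b (0.99), E2f2 (0.83) and Rrm2 (0.74). Falls larger in NIH-3T3 were those of C3 (-2.99), Ccl7 (-2.59), Vcam1 (-1.82), Pdk4 (-1.79), Mmp19 (-1.53) and Osr1 (-1.21). Steap4 (-2.33) and Cdh17 (-1.90) rose more in MLg, and S1pr1 (1.30) and Mrc2 (1.16) fell more there. Outside the compared genes, Mycn (2.77) and Bmp4 (1.20) differed as well.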

How the results depend on the processing

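Of 309 counts recomputed under an alternative, 267 stayed within 1.5 times the value in the report. When a difference of at least 2-fold was required, 66 genes were called (29 above 0, 37 below). With the length and GC correction the calls were 2212 (1144 below 0), with 212 opposite, 1024 in NIH-3T3 alone, 477 in MLg alone, 294 larger in NIH-3T3, 131 larger in MLg, and 1569 moving alike within 2-fold. With that correction and the replicate block together they were 1959 (983 below 0), with 189 opposite, 421 in MLg alone, 267 larger in NIH-3T3, 120 larger in MLg and 1464 alike. The cause was not tested. Leaving out 1 library gave 817 to 1951 calls (474 to 909 above 0, 343 to 1042 below), 61 to 157 opposite, 440 to 992 in NIH-3T3 alone, 137 to 402 in MLg alone, 97 to 206 larger in NIH-3T3 and 30 to 75 larger in MLg. The replicate block alone gave 1373 calls, 763 above and 610 below 0, and 1190 when applied to MLg alone. The labels do not say whether the numbers pair the libraries in either line. With the block, among genes chosen by rule, Kif7 (adjusted p = 0.0559) and E2f2 (0.0543) lost their calls and Gas1, Gnl3 and Arl6 gained them; with the block in MLg alone E2f2 kept its call and Arl6 did not gain one. Of 86 named genes with a called difference 72 kept it under every alternative other than the required 2-fold. Without the filter, 8 of the 86 lost the call. Summing near-identical copies turned the difference of Rps27 to 0.22, its MLg effect to -0.30 and the NIH-3T3 effect of Amd1 to 0.19, because the copies are then counted as one. The NIH-3T3 effect of Sfrp1 ran from -0.29 to 0.46 when 1 library was left out, and 0.46 was without NIH-3T3 SHHN replicate 1. Depth is unknown, so what it limits cannot be stated.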

Other observations

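Among 1640 tested genes outside the comparison, 372 had a called difference, and for most of these 1 line did not express the gene above 1 FPKM on average in either group (136 in MLg, 190 in NIH-3T3). The genes below were chosen after their values were seen. In NIH-3T3, SHHN raised Tspan33, a tetraspanin, from 0.328 ± 0.104 to 12.4 ± 5.96 FPKM, and Syt13, a synaptotagmin, from 1.66 ± 0.281 to 55.1 ± 13.5, while both stayed under 1 FPKM in MLg. Ucma, a secreted cartilage protein, went from 0.126 ± 0.135 to 8.68 ± 2.95 FPKM in NIH-3T3. The Wnt antagonist Sfrp2 fell there from 286 ± 38.1 to 14.7 ± 4.96 FPKM, and the innate immune receptor Tlr2 from 28.4 ± 1.93 to 2.09 ± 0.611.

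In MLg, for genes averaging under 1 FPKM in NIH-3T3, the interleukin 1 receptor antagonist Il1rn fell from 66.7 ± 5.92 to 8.40 ± 0.565 FPKM, the BMP antagonist Grem1 from 149 ± 48.0 to 26.0 ± 2.17, and the matrix protease Mmp3 from 6.72 ± 3.29 to 0.436 ± 0.0820. The neurotrophin receptor Ngfr rose in MLg from 0.150 ± 0.104 to 16.4 ± 2.35 FPKM, the enkephalin precursor Penk from 0.0144 ± 0.0249 to 4.54 ± 0.863, and the transcription factor Batf3 from 0.0302 ± 0.0524 to 3.51 ± 0.520. All values are mean ± SD of 3 libraries.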
